A study of Rattus norvegicus with 6 samples.

Results

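The miRNAs miR-137, miR-138, miR-153 and miR-218 act at synapses and were followed here in the orbitofrontal cortex of injured and sham-operated rats. They were taken as every row of the deposited table named miR-137, miR-138, miR-153, miR-218, miR-218a or miR-218b, which gave 11 of 842 rows. The rule used names only, not measured values. The orbitofrontal cortex is the part of the frontal lobe that weighs the value of outcomes. Its small RNA was sequenced in 6 animals, all adult male rats of the Sprague Dawley stock. In the injured group (3 rats) each of 3 surgeries, on days 1, 4 and 7, delivered a controlled cortical impact, a piston blow to the cortex with a velocity of 5 m/s and a depth of 2 mm. In the sham group (3 rats) surgery was done on the same days with no impact. Tissue of both groups was taken on day 42, and the labels name no transgene or drug in either group. The libraries are from bulk tissue, in which fewer cells of a type and less RNA per cell cannot be told apart. The question was whether the small RNA content of this region differed weeks after repeated mild brain injury.

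A miRNA is cut from a hairpin RNA as a duplex of a 5p and a 3p strand, and usually 1 strand of the duplex is kept and guides an Argonaute protein to messenger RNAs. Pairing runs mainly through the seed, bases 2 to 8 from the 5′ end. miR-137 is rich in neurons and acts in mouse neurons on dendrite growth and on genes of the presynaptic vesicle machinery. miR-138 limits the size of dendritic spines in rat hippocampal neurons by repressing a depalmitoylating enzyme, Lypla1. miR-153 represses Snap25, part of the vesicle fusion machinery, in zebrafish, and alpha-synuclein in mammalian neurons. miR-218 is abundant in neurons, marks motor neurons in mouse, and in mouse prefrontal cortex represses the netrin receptor Dcc.

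All 11 names had a mature sequence in RefSeq (rat build GRCr8). The leading strands, the more abundant arm of each miRNA, are shown first because they hold most of the reads. Capitals mark the seed, and the 4 seeds all differ.
miR-218a-5p: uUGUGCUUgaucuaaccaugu
miR-138-5p: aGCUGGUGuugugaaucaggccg
miR-137-3p: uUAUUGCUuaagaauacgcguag
miR-153-3p: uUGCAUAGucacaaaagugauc
The less abundant strands of the same hairpins are shown because those of miR-138 and miR-218a tell the gene copies apart.
miR-138-1-3p: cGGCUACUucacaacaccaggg
miR-138-2-3p: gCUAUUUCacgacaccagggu
miR-218a-1-3p: aAACAUGGuuccgucaagcac
miR-218a-2-3p: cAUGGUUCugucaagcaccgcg
miR-137-5p: aCGGGUAUucuuggguggauaa
miR-153-5p: gUCAUUUUugugauguugcagcu
In GRCr8, miR-137 comes from 1 gene on chromosome 2 within the span of a long noncoding RNA gene. miR-153 comes from 1 gene on chromosome 6 within the spans of a long noncoding RNA gene and of Ptprn2, which encodes a protein of secretory vesicles. miR-138-5p has 2 gene copies, Mir138-1 on chromosome 8 within long noncoding RNA genes and Mir138-2 on chromosome 19 within protein-coding Slc12a3. miR-218a-5p also has 2, Mir218-1 on chromosome 14 within the span of Slit2 and Mir218-2 on chromosome 10 within that of Slit3, both genes for secreted axon guidance proteins. A count of either 5p strand therefore cannot be assigned to a copy. The authors' build was rn6, and positions are not given here for that reason.

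The row named miR-218b could not be taken as a separate measurement. Its RefSeq sequence is the reverse complement of bases 1 to 20 of miR-218a-5p, on the other strand of the Mir218-1 locus. The match is shown with miR-218b in capitals inside the reverse complement of the whole miR-218a-5p.
miR-218b: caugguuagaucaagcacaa
miR-218a-5p, reverse complement: aCAUGGUUAGAUCAAGCACAA
miR-218b had 223092, 223599 and 201026 counted reads in injured replicates 1, 2 and 3 and 106861, 237027 and 264070 in sham replicates 1, 2 and 3. These were 81.3%, 83.7% and 80.9% of the miR-218a-5p counts in the injured libraries and 81.9%, 84.8% and 88.6% in the sham libraries. The 2 rows thus moved together in every library, at a mean of 82.0% ± 1.5 in injured and 85.1% ± 3.3 in sham animals (SD, n = 3 each). Of 43 pairs of names in the table that overlap on opposite strands by at least 10 bases, the more abundant name having a mean of at least 10 reads, 30 had the less abundant name at 95% or more of the other. Another 8 lay between 50% and 95%, among them the miR-218 pair, and 5 lay under 50%. In 9 pairs both names had equal counts in every library. Whether the counting used the strand is not given in the sources used here, so reads of miR-218a-5p and miR-218b cannot be told apart, and sums are given with and without miR-218b.

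**Figure D1:**
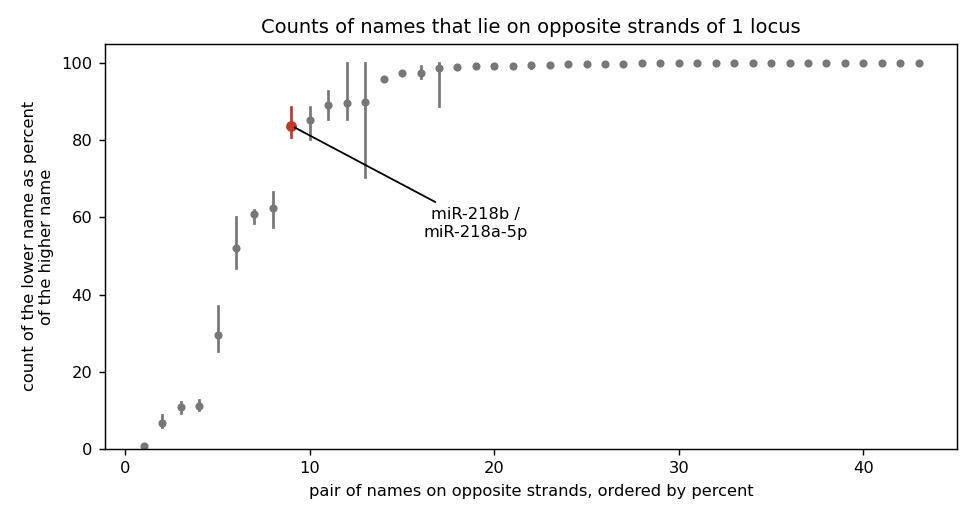
Count of the less abundant name as percent of the more abundant one, for each of the 43 pairs of names on opposite strands of a locus. Points are counts pooled over the 6 libraries, bars run over the libraries from lowest to highest, and the red point is the miR-218 pair, the 9th from the lowest; 30 of the 43 pairs lie at 95% or more.

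Levels of these miRNAs in the orbitofrontal cortex spanned from the most abundant rows of the table to the detection limit. Levels are given as CPM, counts per 1000000 reads after TMM scaling, with no length term. miR-218a-5p (listed as rno-miR-218a-5p), the 15th most abundant of all 842 rows, had 12773, 16815 and 10776 CPM in injured replicates 1, 2 and 3 and 10205, 15575 and 11087 CPM in sham replicates 1, 2 and 3. Replicate 2 of either group was the highest, and the groups overlapped. miR-138-5p (rno-miR-138-5p), the limiter of spine size, ranked 77th and had 847.4, 740.1 and 736.2 CPM in injured and 816.6, 652.5 and 920.4 CPM in sham animals. All 3 injured values lay inside the sham range. miR-137-3p (rno-miR-137-3p) ranked 154th, with 293.2, 208.9 and 180.1 CPM in injured and 231.4, 201.5 and 197.0 CPM in sham animals. Injured replicate 1 stood above the other 5 libraries and injured replicate 3 below them. miR-153-3p (rno-miR-153-3p), the repressor of Snap25, ranked 178th, with 184.5, 176.2 and 109.7 CPM in injured and 129.3, 184.3 and 133.9 CPM in sham animals. Its values fell at 2 levels in both groups, with injured replicates 1 and 2 and sham replicate 2 at the upper.

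The order miR-218a-5p, miR-138-5p, miR-137-3p, miR-153-3p held in all 6 libraries. miR-218a-5p exceeded miR-138-5p 12.0- to 23.9-fold, and miR-138-5p exceeded miR-137-3p 2.89- to 4.67-fold within a library. miR-137-3p exceeded miR-153-3p only 1.09- to 1.79-fold, and their CPM ranges, 180.1 to 293.2 and 109.7 to 184.5, overlapped across libraries. Ligation to the adapters differs between sequences, so these are orders of counted reads and not of molecules. Together the 11 rows took 2.49% ± 0.41 of counted reads in injured and 2.43% ± 0.38 in sham animals (SD, n = 3 each). Without miR-218b the share was 1.42% ± 0.21 in injured and 1.37% ± 0.19 in sham animals. miR-218a-5p and miR-218b made up 93.9% to 96.4% of the counts of the 11 rows, so a summed share mostly follows miR-218.

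The other strands were far lower. miR-138-1-3p had 22.5, 28.8 and 20.5 CPM in injured and 22.7, 20.7 and 19.5 CPM in sham animals, and miR-138-2-3p had 6.33, 8.25 and 6.37 CPM in injured and 5.55, 5.90 and 7.70 CPM in sham animals. Both were highest in injured replicate 2. miR-137-5p (rno-miR-137-5p) had 3.77, 4.66 and 3.90 CPM in injured and 2.89, 3.57 and 4.28 CPM in sham animals. miR-153-5p rested on 53, 33 and 26 reads in injured and 23, 16 and 53 reads in sham animals, and miR-218a-2-3p on 42, 25 and 41 reads in injured and 21, 26 and 36 reads in sham animals. miR-218a-1-3p had 3, 0 and 10 reads in injured and 1, 8 and 13 reads in sham animals, and was the 1 row of the 11 that did not pass the filter on low counts. The 0 in injured replicate 2 allows up to 3 reads, or 0.189 TMM-scaled CPM in that library.

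**Figure D2:**
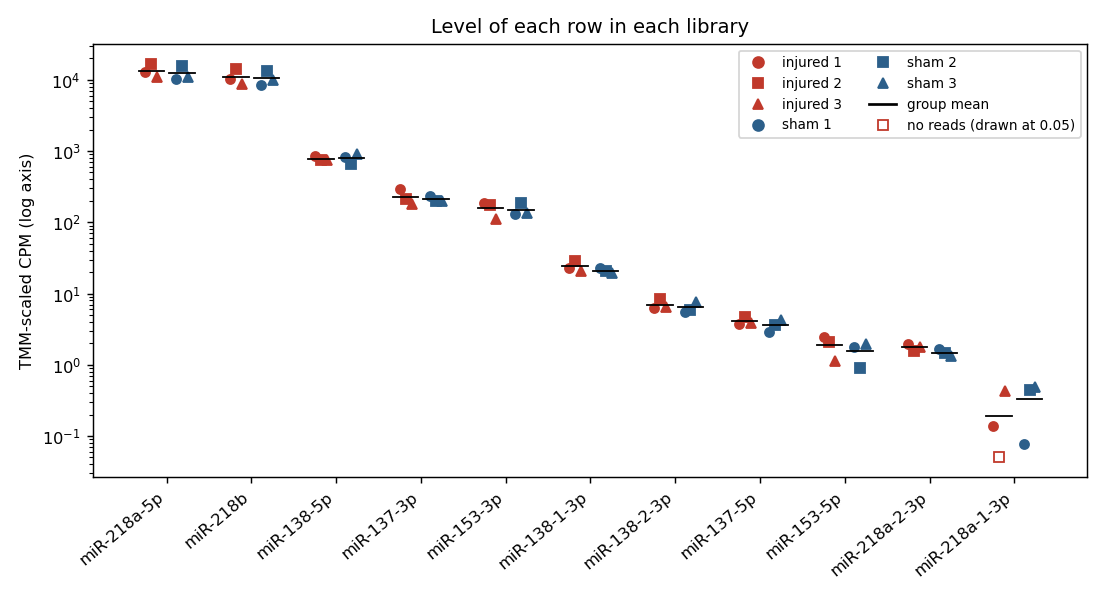
TMM-scaled CPM (log axis) of each of the 11 rows in the 3 injured and 3 sham libraries, with each group's mean as a line. The leading strands run from miR-218a-5p at 10205 to 16815 CPM to miR-153-3p at 109.7 to 184.5 CPM, which overlaps miR-137-3p at 180.1 to 293.2 CPM. The injured and sham points of each row overlap.

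Between injured and sham animals none of these miRNAs passed the test. Of the 10 rows tested, 0 were called by edgeR's quasi-likelihood test at an adjusted p of 0.05, where the background over all 534 rows tested was 0.00%, that is 0 calls. At an unadjusted p under 0.05 there were 0 of the 10, with a background of 2.25%. That background is 12 of the 534 rows, and with 1 library left out it ran from 5 rows without sham replicate 3 to 30 without sham replicate 2, with 21 without injured replicate 1 and 23 without sham replicate 1. DESeq2 also called 0 of all rows, with 19 at an unadjusted p under 0.05. In 0 of the 10 rows did the groups fail to overlap, against 7.87% of all rows tested. For miR-218a-5p the mean was 13455 ± 3077 CPM in injured and 12289 ± 2880 CPM in sham animals (SD, n = 3 each). Injured over sham, the log2 fold change was 0.13 ± 0.22 (SE), with an edgeR adjusted p of 0.911. Its 95% interval, from -0.39 to 0.65, leaves room for a level in injured animals from 0.764 to 1.57 times that in sham animals. For miR-138-5p the mean was 774.6 ± 63.1 CPM in injured and 796.5 ± 135.1 CPM in sham animals, for a log2 fold change of -0.04 (95% interval -0.44 to 0.36).

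miR-137-3p averaged 227.4 ± 58.8 CPM in injured and 210.0 ± 18.7 CPM in sham animals (SD, n = 3 each), and the log2 fold change was 0.12 with an interval from -0.39 to 0.62. Without injured replicate 1, its highest library, the value was -0.11. miR-153-3p averaged 156.8 ± 41.0 CPM in injured and 149.2 ± 30.5 CPM in sham animals, a log2 fold change of 0.07 with an interval from -0.52 to 0.67. Among the less abundant strands the log2 fold changes were 0.19 for miR-137-5p, 0.19 for miR-138-1-3p, 0.12 for miR-138-2-3p, 0.27 for miR-153-5p and 0.27 for miR-218a-2-3p. With 1 library left out these stayed positive but ranged widely, as for miR-153-5p, at 0.03 without injured replicate 1 and 0.58 without injured replicate 3. The smallest unadjusted p of the 10 was 0.313, for miR-218a-2-3p, whose edgeR adjusted p was 0.878. The median of the 10 log2 fold changes was 0.13 against -0.03 over all 534 rows, and 9 of the 10 were positive against 45.7% of all rows. The 10 are not separate measurements, since they include miR-218a-5p with miR-218b and strands of the same hairpins. With 1 name per opposite-strand pair, which leaves out miR-218b, 8 of 9 were positive, and the median over all 491 rows then tested was 0.00. Without the 2 libraries highest in the epithelial miR-200 family, sham replicate 1 and injured replicate 2, 5 of the 11 rows then tested were positive and miR-218a-5p had -0.16. Leaving out single libraries also turned signs: miR-218a-5p had -0.04 without injured replicate 2, and miR-153-3p had -0.06 without injured replicate 1. miR-138-5p turned to between 0.01 and 0.08 without injured replicate 2 or 3 or sham replicate 1 or 3.

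**Figure D3:**
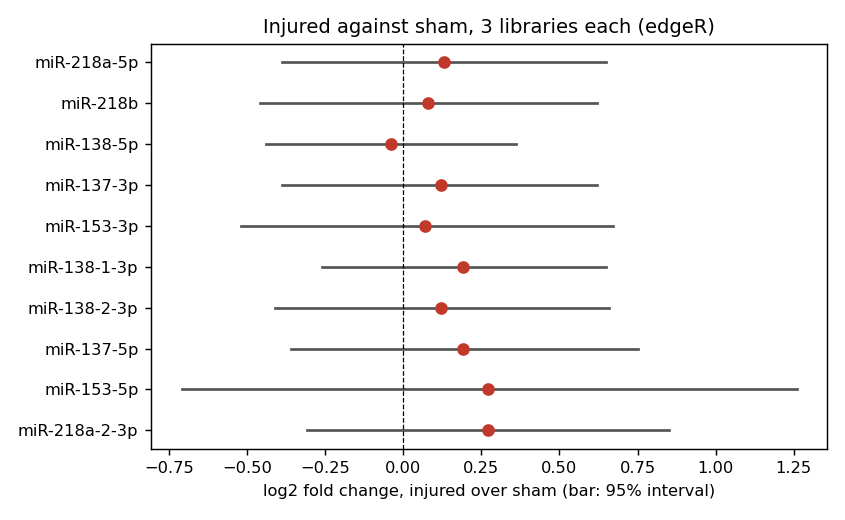
Log2 fold change, injured over sham, of the 10 rows tested (points) with its 95% interval (bars) from edgeR on 3 libraries per group. Every interval spans 0, from -0.71 at the lowest bound to 1.26 at the highest, both for miR-153-5p.

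Ratios between the leading strands, which do not depend on library scaling, were compared for all 6 pairs. The largest difference was that of miR-218a-5p to miR-138-5p, with log2 ratios of 3.91, 4.51 and 3.87 in injured and 3.64, 4.58 and 3.59 in sham animals. The means were 4.10 ± 0.35 in injured and 3.94 ± 0.56 in sham animals (SD, n = 3 each), a difference of 0.16 (exact two-sided permutation p = 0.6). The other 5 differences lay between -0.12 and 0.08, and every p adjusted over the 6 pairs was 1. With 3 against 3 libraries this test cannot go below 0.1, so no ratio could have passed 0.05. The ratio of miR-218a-5p to miR-153-3p varied least, by 0.50 log2 units over the 6 libraries, and that of miR-218a-5p to miR-138-5p most, by 0.99.

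Libraries that stood apart in these levels came from both groups. miR-218a-5p stood 22.7- and 23.9-fold above miR-138-5p in injured replicate 2 and sham replicate 2, and 12.0- to 15.1-fold above it in the other 4 libraries. The same 2 libraries had the highest summed levels of the vessel markers (miR-126a-3p, miR-126a-5p, miR-143-3p and miR-145-5p), at 47063 CPM in injured replicate 2 and 36723 CPM in sham replicate 2, against 24844 to 31089 CPM in the others. They also had the lowest summed levels of the oligodendrocyte markers (miR-219a-5p, miR-219a-2-3p and miR-338-3p), at 1092 and 1131 CPM against 1431 to 1924 CPM. Summed choroid plexus markers were also highest in these 2 libraries, at 626.5 and 573.2 CPM against 449.5 to 492.5 CPM. So was the neuron marker sum, at 323171 CPM in injured replicate 2 and 339552 CPM in sham replicate 2, against 245223 to 316066 CPM. Its members (miR-124-3p, miR-128-3p and miR-9a-5p) did not move together. Of these only miR-128-3p was highest in both libraries, at 115443 and 110017 CPM against 56901 to 92983 CPM. For miR-9a-5p injured replicate 2, at 203536 CPM, lay below injured replicate 1, at 218944 CPM. For miR-124-3p sham replicate 2 was the lowest library, at 4012 CPM. Injured replicate 2 had 4192 CPM of it, against 4139 to 6024 CPM in the others. Microglia, red blood cell and epithelial marker sums were not highest in both. All markers of these lists were detected, and their part in the miR-218 levels was not tested. The SD of log2 CPM within groups was 0.32 for miR-218a-5p, larger than that of 80 of the 100 rows nearest in level, and 0.20 for miR-138-5p, larger than that of 37 of 100. It was 0.35 for miR-153-3p and 0.27 for miR-137-3p, larger than those of 72 and 48 of the 100 rows nearest to each.

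**Figure D4:**
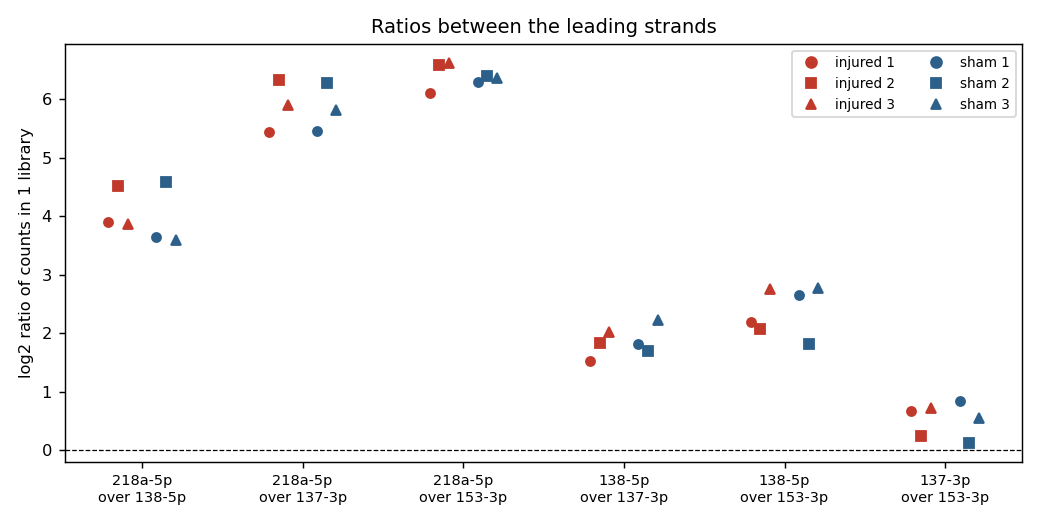
Log2 ratio of counts between 2 leading strands within each of the 3 injured and 3 sham libraries, for all 6 pairs. Injured replicate 2 and sham replicate 2 have the highest ratios of miR-218a-5p to miR-138-5p, at 4.51 and 4.58, and the injured and sham points overlap in each pair.

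Each miRNA kept the same leading strand in all 6 libraries. miR-218a was among the most one-sided hairpins, with a mean log2 ratio of 5p to 3p counts of 12.72 ± 0.58 in injured and 12.68 ± 0.26 in sham animals (SD, n = 3 each). Only 2 of 169 hairpins, with gene copies summed, were more one-sided. The 169 are hairpins whose arms each averaged 10 or more reads, so a ratio this large needs an abundant leading strand. miR-138 also gave mainly its 5p strand, at 4.66 ± 0.30 in injured and 4.85 ± 0.23 in sham animals. miR-137 and miR-153 gave mainly their 3p strands. The log2 ratio of miR-137 was -5.76 ± 0.45 in injured and -5.88 ± 0.40 in sham animals, and that of miR-153 was -6.39 ± 0.18 in injured and -6.62 ± 0.89 in sham animals. In sham replicate 2 miR-153 was at -7.65 on 16 reads of miR-153-5p.

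The choice of strand did not pass the test in any of the 4 hairpins. Differences in the log2 ratio, injured minus sham, were 0.04 for miR-218a (95% interval -0.70 to 0.77), -0.19 for miR-138 (-0.77 to 0.38), 0.12 for miR-137 (-0.59 to 0.83) and 0.23 for miR-153 (-0.71 to 1.17). The smallest adjusted p of the 4 was 0.844, from limma over 169 hairpins, of which 0.00% were called and 2.37% had an unadjusted p under 0.05. For miR-153, leaving out sham replicate 2 gave -0.29 in place of 0.23.

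The 3p strands are specific to a gene copy, and the hairpins are shown to let them be compared. Capitals mark the 5p strand, which the copies share, and after it the 3p strand, which they do not.
Mir138-1: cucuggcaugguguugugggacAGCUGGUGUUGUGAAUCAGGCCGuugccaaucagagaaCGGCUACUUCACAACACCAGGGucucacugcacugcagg
Mir138-2: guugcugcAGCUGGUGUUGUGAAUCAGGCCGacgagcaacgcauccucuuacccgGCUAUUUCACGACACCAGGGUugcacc
Mir218-1: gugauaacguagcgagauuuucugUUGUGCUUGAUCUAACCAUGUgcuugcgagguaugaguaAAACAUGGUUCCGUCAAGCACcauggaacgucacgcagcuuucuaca
Mir218-2: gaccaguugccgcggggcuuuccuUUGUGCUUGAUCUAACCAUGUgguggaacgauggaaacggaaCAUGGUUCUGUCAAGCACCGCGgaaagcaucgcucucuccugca
miR-138-1-3p took 78.1%, 77.8% and 76.3% of the reads of both miR-138 3p strands in injured replicates 1, 2 and 3 and 80.3%, 77.8% and 71.7% in sham replicates 1, 2 and 3. The mean was 77.4% ± 0.93 in injured and 76.6% ± 4.5 in sham animals (SD, n = 3 each). The strand of Mir138-1 led in all 6 libraries. The lowest library, sham replicate 3, had a Wilson 95% interval from 68.3% to 74.8% on 731 reads.

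For miR-218a the strand of Mir218-2, the copy in Slit3, led in all 6 libraries. miR-218a-1-3p gave 35 of 226 reads of both 3p strands over the 6 libraries, 15.5%. Its share was 6.67%, 0% and 19.6% in injured and 4.55%, 23.5% and 26.5% in sham animals. The 0 of 25 reads in injured replicate 2 allows a share of up to 12.0% by the limit of 3 counts, with a Wilson upper bound of 13.3%, and all 6 intervals are wide. In neither miRNA does a 3p share give the share of the 5p strand, since the copies may differ in how their duplexes are loaded. The copy that carries miR-218b on its other strand, Mir218-1, is the one with fewer 3p reads.

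**Figure D5:**
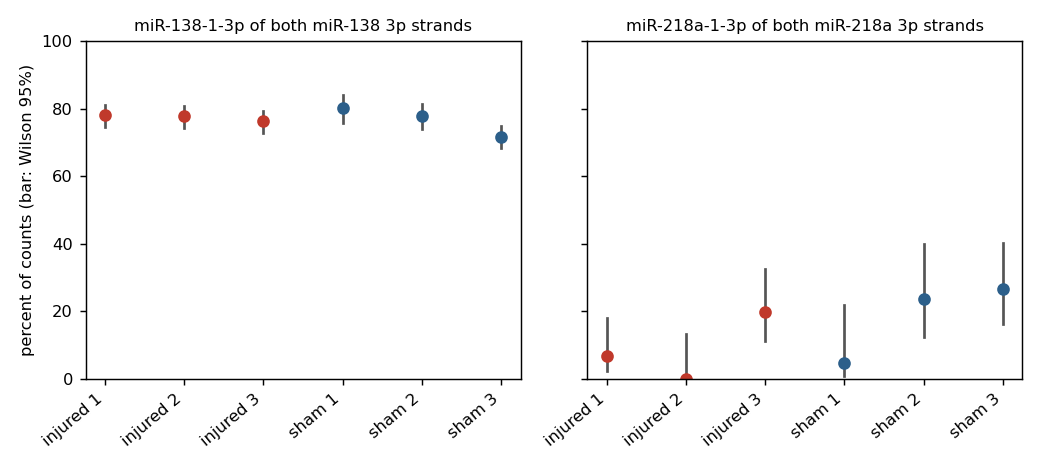
Share of the 3p reads that came from the first gene copy, miR-138-1-3p (left) and miR-218a-1-3p (right), in each injured and sham library, with Wilson 95% intervals that cover counting error only. miR-138-1-3p lies between 71.7% and 80.3% and miR-218a-1-3p between 0% and 26.5%.

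Few other miRNAs shared the seeds of these strands. Of the 676 miRBase names listed, 614 had a RefSeq sequence, and 0 of them shared bases 2 to 8 with a row of this group. Bases 2 to 7 were shared by miR-448-3p, from the serotonin receptor gene Htr2c, with miR-153-3p. They are set beside each other with bases 2 to 8 in capitals.
miR-153-3p: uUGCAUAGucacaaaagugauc
miR-448-3p: uUGCAUAUguaggauguccca
miR-448-3p had 7.78 ± 1.19 CPM in injured and 8.73 ± 2.37 CPM in sham animals (SD, n = 3 each), which differed by -0.17 ± 0.26 on the log2 scale (SE, injured over sham). It added little to the 156.8 CPM in injured and 149.2 CPM in sham animals of miR-153-3p. Bases 2 to 7 of miR-138-5p were shared by miR-133a-5p, which had 1, 1 and 3 reads in injured and 2, 5 and 6 reads in sham animals. Those of miR-138-1-3p were shared by miR-187-5p, with 7, 10 and 4 reads in injured and 2, 4 and 12 reads in sham animals. Those of miR-218a-1-3p were shared by miR-322-3p, with 50.7 ± 3.32 CPM in injured and 55.9 ± 7.55 CPM in sham animals. miR-218a-2-3p and miR-218b shared bases 2 to 7 with each other, and no other name with a sequence shared those of miR-137-3p or miR-218a-5p.

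The rows most like each leading strand over the 6 libraries were sought among 345 others with miRBase names and a mean of at least 10 CPM, by Pearson's r of log2 CPM. These are descriptions of the best of many candidates on 6 libraries, so no p is given. miR-218a-5p was most like miR-218b (r = 0.99, Spearman's rho = 1.00) and miR-708-3p (r = 0.96, rho = 1.00). Without the 2 libraries farthest from the median of miR-218a-5p, both of replicate number 2, r was 0.91 and 0.77. Reads of miR-218a-5p and miR-218b cannot be told apart, so their likeness is not that of 2 separate measurements. miR-138-5p was most like miR-300-5p (r = 0.94, rho = 0.89) and miR-425-5p (r = 0.91, rho = 0.89), with r = 0.91 and 0.81 without its 2 farthest libraries. miR-137-3p was most like miR-29a-3p (r = 0.96, rho = 0.83) and miR-30e-5p (r = 0.93, rho = 0.89), with 1.00 and 0.97. miR-153-3p was most like miR-135a-5p (r = 0.98, rho = 0.94) and miR-136-5p (r = 0.97, rho = 0.83), with 0.97 and 0.99. None of the 8 had a log2 fold change beyond -0.23 to 0.15, injured over sham. Among the leading strands themselves, r ran from -0.58 for miR-218a-5p with miR-138-5p to 0.82 for miR-218a-5p with miR-153-3p.

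Other miRNAs that act at synapses did not pass the test either. Of a list of 24, all were tested, 0 were called over all 534 rows and 0 had an unadjusted p under 0.05, against 2.25% of all rows. In the list 13 log2 fold changes were positive and 11 negative, where 45.7% of all rows were positive, with a median of 0.03 against -0.03 over all rows. miR-212-3p, which is induced by neuronal activity, had 170.9, 145.1 and 212.4 CPM in injured and 214.8, 197.8 and 300.3 CPM in sham animals. Its log2 fold change was -0.43 ± 0.23 (SE), with an edgeR adjusted p of 0.878. miR-146a-5p, which is also a miRNA of inflammation, had 32.7 ± 9.83 CPM in injured and 43.2 ± 6.25 CPM in sham animals (SD, n = 3 each). miR-22-3p had 7177 ± 150.5 CPM in injured and 6351 ± 476.7 CPM in sham animals. The log2 fold changes were -0.40 and 0.18, each with an edgeR adjusted p of 0.878. For miR-22-3p the groups did not overlap, at 7025 to 7326 CPM in injured and 5801 to 6640 CPM in sham animals. Groups did not overlap in 7.87% of all rows tested. Neuronal miR-124-3p had 4610 ± 770.8 CPM in injured and 4782 ± 1086 CPM in sham animals. It was lower than miR-218a-5p in every library.

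The libraries held 12538288 to 23680840 counted reads, and 697 to 756 rows had at least 1 read. Neuron markers (miR-124-3p, miR-128-3p and miR-9a-5p) summed to 282179 to 323171 CPM in injured and 245223 to 339552 CPM in sham animals. Markers of microglia and immune cells summed to 30.1 to 35.7 CPM in injured and 37.6 to 43.4 CPM in sham animals. Red blood cell markers summed to 23.5 to 43.1 CPM in injured and 51.8 to 92.7 CPM in sham animals. Choroid plexus markers summed to 449.5 to 626.5 CPM in injured and 468.5 to 573.2 CPM in sham animals. Epithelial markers, the miR-200 family, ranged from 7.68 to 1715 CPM in injured and from 48.0 to 3528 CPM in sham animals. The sums of the microglia and immune list and of the red blood cell list were lower in injured animals, with no overlap of the groups. These sums were not tested, and groups did not overlap in 7.87% of single rows tested. None of the 24 markers of these lists and those of vessels and oligodendrocytes was called, and no marker was at 0 in all libraries. The red blood cell marker miR-451-5p had a log2 fold change of -1.15, with an unadjusted edgeR p of 0.00835 and an adjusted p of 0.878. An unadjusted p under 0.05 was found in 2.25% of all rows.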

How the data were processed

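Small RNA libraries came from orbitofrontal cortex of 3 injured and 3 sham rats, which the labels call biological replicates. Replicate numbers follow accession order and only name libraries, and the labels name no batch. Per the labels' protocols, libraries were made with a ligation-based small RNA kit from total RNA. Per the submitters' processing notes, Bowtie and rn6 were used. The sources used here name no counter, strand setting or miRNA release.

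Per the file headers, the 1 table the authors deposited holds raw counts and TPM values of each library. The deposited TPM equalled the count scaled to a column sum of 1000000, to within 4.66e-10, so it corrects for depth and not for length. No 2 libraries agreed within sampling noise (smallest chi-square over its degrees of freedom 235).

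Counts were tested with edgeR 4.0.16 (quasi-likelihood F-test, TMM, filterByExpr, minimum count 10 and minimum total 15) in R 4.3.3, with Benjamini-Hochberg adjustment over the 534 rows that passed. These held 99.996% of counts. Standard errors were derived from the fold change and the F statistic. Strand ratios were tested with limma 3.58.1 on log2 ratios (pseudocount 0.5) over hairpins whose arms each averaged 10 or more reads. The reads had no molecular identifiers, so binomial and Poisson intervals describe counting error alone. At these depths 3 counts, the limit that a count of 0 allows, are 0.112 to 0.235 TMM-scaled CPM. On simulated counts for injured against sham, with 524 miRNAs tested, edgeR called 35 of 99 changed 2-fold, 88 of 94 changed 4-fold and 4 of 331 unchanged. The simulation gave every row the same dispersion, whereas the spread of real rows differs.

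The members, the lists and the tests were chosen with earlier results of these data known. Values are given for all rows of the naming rule, names that share bases 2 to 7 or 2 to 8, the 2 rows most like each leading strand, the 3 of the synaptic list with the smallest p, and miR-124-3p. Sequences are from RefSeq. Alternatives changed the scaling, filter, test (DESeq2 1.42.0, limma-voom, log2 TPM), duplicate names and libraries.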

Additional observations from a re-analysis of the deposited data

How the results depend on the processing

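No paired analysis was possible because the replicate numbers only follow accession order and the labels pair no animals. The 0 calls held under every alternative except the fit without injured replicate 2 and sham replicate 1, the libraries highest in miR-200 miRNAs. That fit gave 1 call, of a miRNA outside this group. All members stayed on the same side of the threshold under every alternative, while small log2 fold changes turned sign, and the cause was not tested. With upper-quartile factors, which moved the median of all rows to 0.12 from -0.03 with TMM, all 10 tested rows were positive and miR-138-5p had 0.10. On log2(TPM + 1) and log2(TPM + 0.1) miR-153-3p had -0.01 and -0.01. Without those 2 libraries miR-137-5p had -0.01, miR-138-2-3p -0.07, miR-138-5p 0.04, miR-153-3p -0.09, miR-218a-5p -0.16 and miR-218b -0.25.

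With 1 library left out in turn, the log2 fold changes ran from -0.11 to 0.29 for miR-137-3p, -0.12 to 0.08 for miR-138-5p, -0.06 to 0.30 for miR-153-3p, -0.04 to 0.38 for miR-218a-5p and -0.11 to 0.33 for miR-218b. Among the less abundant strands they ran from 0.11 to 0.34 for miR-137-5p, 0.06 to 0.33 for miR-138-1-3p, 0.01 to 0.28 for miR-138-2-3p, 0.03 to 0.58 for miR-153-5p and 0.19 to 0.38 for miR-218a-2-3p. Differences in strand ratio ran from -0.09 to 0.38 for miR-137, -0.31 to -0.02 for miR-138, -0.29 to 0.50 for miR-153 and -0.28 to 0.28 for miR-218a. Differences in the log2 ratio between leading strands ran from -0.04 to 0.48 for miR-218a-5p to miR-138-5p, -0.18 to 0.27 for miR-218a-5p to miR-137-3p, -0.01 to 0.24 for miR-218a-5p to miR-153-3p, -0.23 to 0.04 for miR-138-5p to miR-137-3p, -0.38 to 0.10 for miR-138-5p to miR-153-3p and -0.16 to 0.20 for miR-137-3p to miR-153-3p.

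Counting 1 name per near-duplicate pair in the library totals raised the share of the 11 rows to 3.19% in injured and 3.16% in sham animals, and without miR-218b to 1.82% in injured and 1.78% in sham animals. With 1 name per opposite-strand pair, an alternative chosen after seeing the data, the share without miR-218b was 1.88% in injured and 1.84% in sham animals. Depth limits the low strands: miR-218a-1-3p, with 0 to 13 reads, was not tested. With 3 animals per group, edgeR called 35 of 99 simulated 2-fold changes, so differences of 2-fold or smaller could go uncalled.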
